A study of Mus musculus with 4 samples.

Results

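Genes of the mitochondrial respiratory chain and ATP synthase were examined in tumour cells of an ErbB2 mouse model of mammary cancer after treatment with GSK126, an inhibitor of the H3K27 methyltransferase EZH2, or with its vehicle DMSO. The 89 genes were those of 22180 named genes whose symbol starts with Ndufa, Ndufb, Ndufc, Ndufs or Ndufv (complex I), Uqcr (complex III), Cox4 to Cox8 (complex IV) or Atp5 (complex V), or is Sdha, Sdhb, Sdhc or Sdhd (complex II). They comprised 42 genes of complex I, 4 of complex II, 8 of complex III, 17 of complex IV and 18 of complex V. The rule used symbols only, and where a gene had several probe sets the one with the highest mean level was taken. Not all of them encode subunits. The pattern also took the 8 Ndufaf genes, which encode assembly factors of complex I, Cox7a2l, whose product helps join complexes III and IV, and the pseudogenes Atp5c1-ps and Uqcrh-ps1.

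The cells were lines established from tumours that arose in the MMTV-NIC model, in females on the FVB strain. In this model the mouse mammary tumour virus promoter drives activated ErbB2 and Cre recombinase from a single transcript in the mammary epithelium, and every array shares this background. Control cells received DMSO and treated cells 2 µM GSK126, each for 96 h, with n = 2 arrays a group. The sources used here do not say whether the replicates are separate lines or separate cultures of 1 line, so p-values reflect the spread among 4 arrays, and that spread may be technical only. Of 7 markers of luminal epithelium, 6 were bright (Krt18 at 11.7 and Epcam at 10.6 in DMSO on the log2 scale). Krt19 was near the dim limit at 4.79. Dim is used here for group means below 4.77, the 40th percentile of mean level. Dim in both groups were 4 of 5 immune, 3 of 4 adipocyte and 2 of 4 striated muscle markers. The same held for only 1 of 5 fibroblast, 1 of 4 endothelium and 1 of 3 basal epithelium markers. The highest mean level was 6.29 among muscle, 5.99 among fibroblast and 5.75 among basal markers. The part of other cell types in these samples was not tested. GSK126 replicate 2 stood furthest from the other arrays, with correlations of 0.981 to 0.983 over all probe sets.

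The respiratory chain passes electrons from NADH (complex I) and succinate (complex II) through ubiquinone, complex III and cytochrome c to oxygen at complex IV, and the proton gradient built on the way drives ATP synthase, complex V. Most subunits are encoded in the nucleus, and a small catalytic core is encoded in mitochondrial DNA. Cultured tumour cells use the chain for ATP and to regenerate electron acceptors for nucleotide and aspartate synthesis. Promoters of nuclear subunit genes often carry sites for NRF1, for ETS factors such as GABP and for YY1.

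Messenger RNA of these complexes changed little. None of the 89 genes passed the threshold of 0.05 in limma with Benjamini-Hochberg adjustment over all genes (0 of 89), against 0.433% of all genes (0.261% higher and 0.171% lower), and the smallest adjusted p was 0.0737. At an unadjusted p under 0.05 in limma, 3 genes were lower with GSK126, against 5.93% of all genes and 8.9% of those that were not dim in both groups, and 1 was higher, against 4.64%. All 4 belonged to complex I. The change, GSK126 minus DMSO on the log2 scale, was smaller than 0.2 in size for 76 of the 89 genes. The 95% confidence interval of the change lay within a 2-fold change in either direction for 87 genes and within a 1.5-fold change for 82, with a median half-width of 0.24. Of the 7 genes whose interval reached past 1.5-fold, Ndufb11 and Ndufs5 also reached past 2-fold, and the others were Ndufaf2, Uqcrh-ps1, Cox6b2, Atp5l and Atp5j2. In bulk samples such as these, fewer cells of a type and less RNA per cell cannot be told apart.

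The small differences leaned downward. The mean was lower with GSK126 for 61 of the 89 genes, against 51.9% of all genes and 58.2% of the 13693 genes that were not dim in both groups. The median change was -0.053, against -0.008 over all genes and -0.033 over those that were not dim. Both GSK126 arrays lay below both DMSO arrays for 29 genes (32.6%), against 21.8% of all genes and 28.1% of genes that were not dim. They lay above both for 7 genes, against 18.2% of all genes. Scaling moved these counts. With each array centred on its median, 71 of the 89 genes were lower, at a median of -0.11 against -0.062 over all genes, and after quantile normalization 55 were lower, at a median of -0.053 against -0.018. Without DMSO replicate 1, 51 of the 89 were lower, at a median of -0.029. Leaving out 1 array at a time, 48 of the 89 kept the sign of their change in all 4 fits, 35 of them lower and 13 higher.

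**Figure D1:**
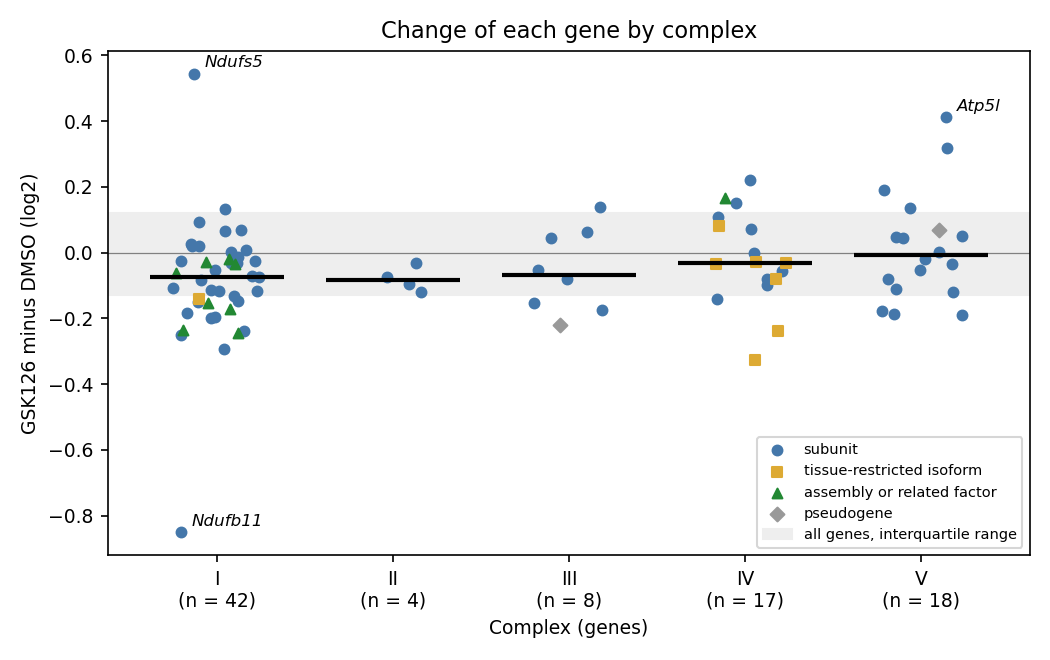
Change (GSK126 minus DMSO, log2, y axis) of each of the 89 genes, grouped by complex (x axis, number of genes in brackets); symbols mark the kind of gene, black bars the median of each complex and the grey band the interquartile range of all named genes (-0.13 to 0.12). Ndufb11 lies apart at -0.85 and Ndufs5 at 0.54, while most genes lie within the grey band.

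Complex I, the NADH dehydrogenase that receives most electrons, leaned downward. Of its 42 genes, 32 had a lower mean with GSK126 and 10 a higher one, with a median of -0.073 (interquartile range -0.15 to -0.015). Both GSK126 arrays were below both DMSO arrays for 21 genes, against 21.8% of all genes and 28.1% of those that were not dim, and above for 3, against 18.2% and 17.3%. Differences between the complexes were not tested. The medians of the genes' deviations from their own 4-array mean were 0.048 and 0.026 on DMSO replicates 1 and 2 and -0.043 and -0.039 on GSK126 replicates 1 and 2. The 2 groups of arrays did not overlap in this summary. Over all genes they did (0.007 and -0.002 in DMSO, 0.010 and -0.026 with GSK126), but over genes that were not dim they did not either (0.020 and 0.008 in DMSO, 0.0005 and -0.039 with GSK126). Without DMSO replicate 1 the complex I median was -0.046. The 8 Ndufaf assembly factors all had a lower mean, at a median of -0.11 and with 5 of 8 not overlapping, but after quantile normalization 5 of the 8 did, and the 34 other genes of complex I had a median of -0.073. After quantile normalization 26 of the 42 were lower, with both GSK126 arrays below for 18, against 22.3% of all genes, and above for 3, against 16.9%.

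**Figure D2:**
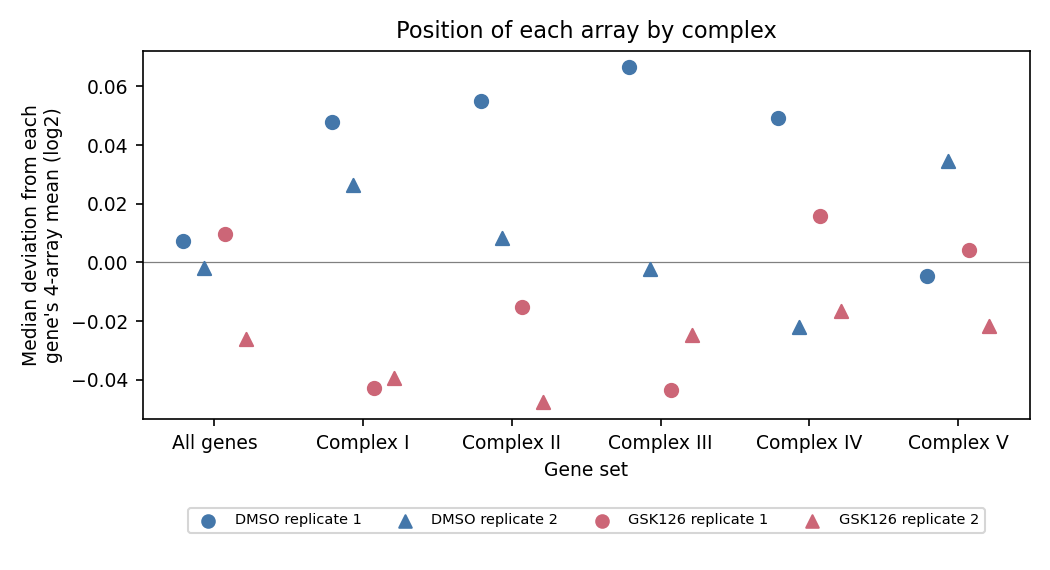
Position of each array (y axis: median over genes of the deviation from that gene's mean over the 4 arrays, log2) for all named genes and for each complex (x axis); colours mark treatment and symbols the replicate number. In complexes I, II and III both GSK126 arrays lie below both DMSO arrays, and in complexes IV and V the groups overlap.

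Ndufb11, an accessory subunit in the membrane arm of complex I, showed the largest difference. Its values were 5.80 and 5.61 on the DMSO arrays (replicates 1 and 2) and 4.91 and 4.79 on the GSK126 arrays. The groups did not overlap and lay further apart than the replicates of either group. The change was -0.85 (SE 0.14, 95% interval -1.19 to -0.51), a 1.80-fold lower level, with an unadjusted p of 0.000447 and an adjusted p of 0.0737 in limma. It passed the threshold when genes below the 40th percentile were left out of the fit (adjusted p = 0.0388) and with centred arrays (adjusted p = 0.0471), and it did not pass under the other alternatives, where the adjusted p in limma ran from 0.0516 after quantile normalization to 0.482 without DMSO replicate 1. Its change lay between -0.76 and -0.94 when single arrays were left out.

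The remaining 3 complex I genes at an unadjusted p under 0.05 were Ndufb5, Ndufa5 and Ndufs5. Ndufb5, another accessory subunit of the membrane arm, had values of 7.55 and 7.60 in DMSO and 7.32 and 7.36 with GSK126, a change of -0.24 (SE 0.09, adjusted p = 0.434). Ndufa5, an accessory subunit of the arm that faces the matrix, had 6.70 and 6.54 in DMSO and 6.29 and 6.36 with GSK126, a change of -0.29 (SE 0.12, adjusted p = 0.435). Neither gene's groups overlapped, and both GSK126 arrays were low. Ndufs5, an accessory subunit of the membrane arm, went the other way, with 3.87 and 3.56 in DMSO and 4.09 and 4.43 with GSK126, a change of 0.54 (SE 0.20, adjusted p = 0.401). It was dim in both groups, so the size of its change is uncertain, and a further probe set that names both Ndufs5 and a pseudogene was not used.

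**Figure D3:**
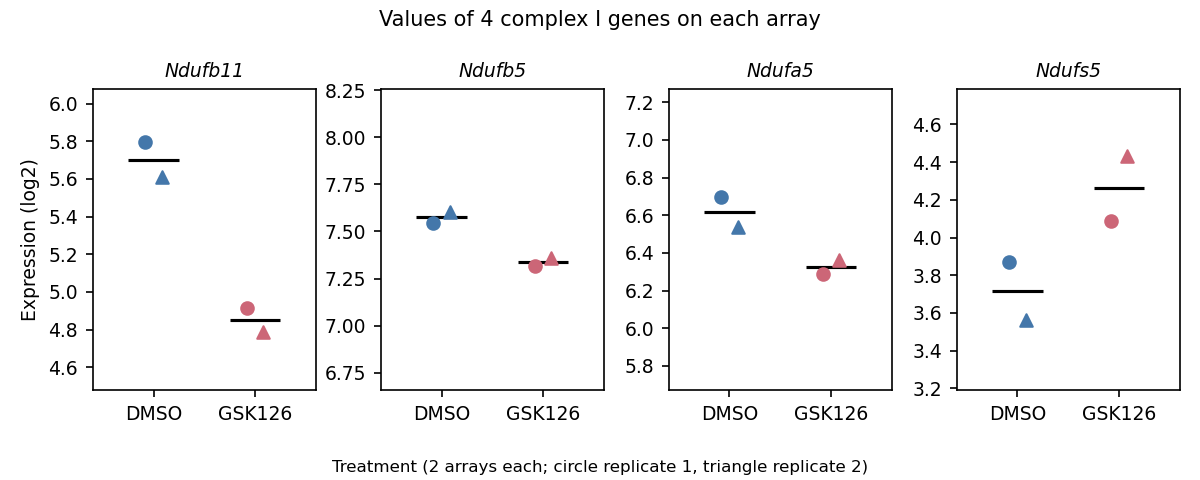
Expression (log2, y axis, each panel spanning an equal range) of Ndufb11, Ndufb5, Ndufa5 and Ndufs5 on the 2 DMSO and 2 GSK126 arrays (x axis); points are arrays and black bars group means. Both GSK126 arrays lie below both DMSO arrays for the first 3 genes and above them for Ndufs5.

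The core subunits, which hold the redox centres of complex I or lie beside them, were mostly lower. Of the 6 measured, 5 had lower means with GSK126, at a median of -0.12 against -0.031 for the 27 accessory subunits, and 0 passed an unadjusted p of 0.05 in limma. Ndufs7, an iron-sulphur subunit at the ubiquinone site, had 9.84 and 9.62 in DMSO and 9.61 and 9.48 with GSK126 (change -0.18, SE 0.10). Ndufs8, which carries iron-sulphur clusters, was at 9.43 and 9.46 in DMSO and 9.32 and 9.33 with GSK126 (change -0.12, SE 0.08). In both of these genes the GSK126 arrays were the lower ones, but for Ndufs7 the change was smaller than the gap between its DMSO arrays.

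Ndufs3, another core subunit of the matrix arm, changed by -0.15 without overlap (6.06 and 6.26 in DMSO, 5.98 and 6.03 with GSK126). Ndufs1, the largest iron-sulphur subunit (-0.13), and Ndufv1, which binds NADH (-0.08), had overlapping groups. Ndufv2, an iron-sulphur partner of Ndufv1, was the exception, at 8.87 and 8.89 in DMSO and 8.91 and 9.11 with GSK126 (change 0.13, SE 0.09). Its GSK126 arrays were higher, and most of the difference lay in replicate 2.

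Among other accessory subunits, Ndufab1, the mitochondrial acyl carrier protein, changed by -0.25 (7.24 and 7.29 in DMSO, 6.91 and 7.12 with GSK126). Ndufa11 of the membrane arm changed by -0.20, and Ndufa9, which sits near the ubiquinone site, by -0.20. All 3 had an adjusted p between 0.482 and 0.504 in limma and groups that did not overlap. Ndufa11 had a second, less bright probe set with the same direction (-0.49), whereas the second probe set of Ndufa12, a matrix-arm subunit, was at 0.31 against -0.03 for the probe set used. Ndufa4, now counted as a subunit of complex IV although named for complex I, was at 10.71 and 10.74 in DMSO and 10.69 and 10.74 with GSK126. Its paralog Ndufa4l2, known as a hypoxia-induced gene, was dim on all arrays (3.99 and 4.06 in DMSO, 3.92 and 3.84 with GSK126).

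Complex II, succinate dehydrogenase, has 4 subunits, all encoded in the nucleus, and all 4 had slightly lower means (median -0.084). Sdhb, the iron-sulphur subunit, was at 7.32 and 7.40 in DMSO and 7.28 and 7.25 with GSK126 (change -0.09, SE 0.10). Both GSK126 arrays lay below both DMSO arrays for this gene only, 1 of 4, against 21.8% of all genes and 28.1% of those that were not dim. They lay above for 0 of the 4, against 18.2% and 17.3%. After quantile normalization 0 of the 4 lay below, against 22.3% of all genes, and 0 above, against 16.9%. Sdha, the flavoprotein that oxidises succinate, changed by -0.07 (SE 0.09). The membrane anchors Sdhc and Sdhd changed by -0.12 (SE 0.14) and -0.03 (SE 0.09). Sdhc was high on DMSO replicate 1, at 9.53 against 9.09, 9.13 and 9.25 on the other arrays. Without that array 2 of the 4 genes were lower, at a median of -0.040, and without GSK126 replicate 2 the median was -0.047. The smallest adjusted p was 0.797 in limma.

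Complex III, which passes electrons from ubiquinol to cytochrome c, had a median of -0.067 over 8 genes, with 5 lower and 3 higher. Uqcrfs1, the Rieske iron-sulphur protein, was at 6.83 and 6.83 in DMSO and 6.70 and 6.60 with GSK126 (change -0.18, SE 0.10). Uqcrc1, a core protein on the matrix side, was at 10.63 and 10.45 in DMSO and 10.44 and 10.35 with GSK126 (change -0.15, SE 0.09). These genes, Uqcrc2 (-0.05) and Uqcrh (-0.08) had both GSK126 arrays below both DMSO arrays. They were 4 of the 8 genes, against 21.8% of all genes and 28.1% of those that were not dim. Both GSK126 arrays lay above for 0 of the 8, against 18.2% and 17.3%. Of the small subunits, Uqcr11 was at 0.14 (SE 0.13), Uqcrq at 0.06 and Uqcrb at 0.05, each with overlapping groups. None of the 8 had an adjusted p below 0.607 in limma. The median was -0.024 without DMSO replicate 1 and -0.11 without DMSO replicate 2. Cyc1, which carries the haem of cytochrome c1 in this complex but lies outside the name pattern, changed by -0.13 (adjusted p = 0.694).

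Complex IV, cytochrome c oxidase, was mixed. Its 17 genes had a median of -0.032, with 11 lower and 6 higher, and the sign of the median turned to 0.006 without DMSO replicate 1 and to 0.023 without GSK126 replicate 2. Both GSK126 arrays lay above both DMSO arrays for 4 genes (23.5%, against 18.2% of all genes) and below for 1 (against 21.8%), but with centred arrays 1 lay above (against 12.7%) and 4 below (against 31.6%). The 4 were Cox5a, Cox7a2, Cox7a2l and Cox7b. Cox5a, a nuclear subunit on the matrix side, had 9.39 and 9.54 in DMSO and 9.68 and 9.56 with GSK126 (change 0.15, SE 0.09). Cox7a2l had 7.47 and 7.50 in DMSO and 7.66 and 7.64 with GSK126 (change 0.17, SE 0.09, adjusted p = 0.572). For Cox7b, a small transmembrane subunit, 3 arrays lay between 9.12 and 9.16 and GSK126 replicate 2 stood at 9.56. Its second probe set was dim and pointed down (-0.56).

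Several complex IV subunits exist as a widely expressed form and a form restricted to heart, muscle, lung or testis. The wide forms Cox4i1 (-0.06), Cox6a1 (-0.08), Cox6b1 (0.07), Cox7a2 (0.11) and Cox8a (-0.10) were each bright, and 0 of the 5 passed an unadjusted p of 0.05 in limma. Cox7c, also a wide form, was dim in both groups on its probe set (4.74 and 4.64 in DMSO, 4.67 and 4.70 with GSK126). The restricted forms Cox6a2, Cox6b2, Cox7b2, Cox8b and Cox8c were dim in both groups, and Cox4i2, the lung form, was just above the dim limit at 4.89 and 4.91 in DMSO and 4.84 and 4.89 with GSK126. Cox7a1, the heart and muscle form, was not dim and was the 1 gene of the complex with both GSK126 arrays below, at 6.62 and 6.58 in DMSO and 6.36 and 6.37 with GSK126 (change -0.24, SE 0.11, adjusted p = 0.491). Of 4 markers of striated muscle, 2 were dim in both groups, and the summed log2 level of the 4 was 19.3 and 19.4 in DMSO and 19.8 and 19.0 with GSK126, so that the groups overlapped. Tnnt3, the brightest of them, had both GSK126 arrays below both DMSO arrays (6.55 and 6.35 in DMSO, 5.96 and 6.31 with GSK126), as Cox7a1 did, and Myh4, which was dim, had both above. Their part in the Cox7a1 value was not tested. Cox5b, a zinc-binding subunit, changed by -0.14 with overlapping groups, and its second probe set, which was close to the dim limit, by 0.11.

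Complex V, ATP synthase, was balanced, with 9 genes lower and 9 higher and a median of -0.008, which was 0.007 after quantile normalization, -0.062 with centred arrays, -0.040 without GSK126 replicate 1 and 0.010 without DMSO replicate 1. The 5 subunits of the catalytic F1 head and its central stalk all had overlapping groups: alpha (Atp5a1, -0.12), beta (Atp5b, -0.05), gamma (Atp5c1, 0.05), delta (Atp5d, -0.11) and epsilon (Atp5e, 0.05). Atp5b, whose product holds the catalytic sites, was at 12.01 and 12.24 in DMSO and 12.11 and 12.04 with GSK126, so its treated values lay between the controls. The c subunit of the rotating ring is encoded by 3 genes whose products differ in the import sequence that is removed. Of these, Atp5g1 changed by -0.19 (SE 0.15), Atp5g2 by -0.02 (SE 0.08) and Atp5g3 by -0.03 (SE 0.08), each with overlap.

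In the peripheral stalk of the ATP synthase, which keeps the F1 head from turning, 3 of 4 genes had a lower mean. Atp5h (subunit d) had 11.33 and 11.22 in DMSO and 11.01 and 11.17 with GSK126 (change -0.19, SE 0.09, adjusted p = 0.522), and Atp5j (coupling factor 6) had 6.52 and 6.44 against 6.25 and 6.36 (change -0.18, SE 0.11). These were the only 2 genes of complex V whose groups did not overlap. Both lay below, 2 of 18 (11.1%) against 21.8% of all genes, and 0 lay above, against 18.2%. With centred arrays 7 of the 18 lay below, against 31.6% of all genes. After quantile normalization 2 lay below and 2 above, against 22.3% and 16.9%. Atp5o, the oligomycin sensitivity protein of the stalk, was at 0.19 (SE 0.14) with overlap. The second probe set of Atp5h was at 0.06. The 5 membrane subunits outside the ring (Atp5j2, Atp5k, Atp5l, Atp5md and Atp5mpl) all had changes above 0, from 0.001 for Atp5mpl to 0.41 for Atp5l, but with centred arrays 2 of the 5 were below 0. All 5 had overlapping groups. Atp5l (subunit g) was low on DMSO replicate 1 alone, with values of 9.81 on that array and 10.54, 10.53 and 10.64 on DMSO replicate 2 and the GSK126 arrays. Whether the 2 parts differ was not tested.

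Promoter sequence was examined for letters of the usual regulators of these genes. RefSeq promoter windows (build GRCm38.p6, 250 bases before to 50 after a start site) were found for 72 of the 89 genes. The NRF1 letters (GCGCA, any base, then GCGC), on either strand, were present for 17 of 72 (23.6%), against 5.19% of all 27025 genes with a window and 7.17% of protein-coding ones. The ETS letters CCGGAAG were present for 19 of 72 (26.4%), against 9.93% of all genes and 12.9% of protein-coding ones. The YY1 letters AAGATGGC were present for 10 of 72 (13.9%), against 3.19% and 3.57%. The ETS and YY1 letters can overlap at AAG, and a gene can hold more than 1 motif. Median changes were -0.071 with the NRF1 letters and -0.032 without, -0.081 and -0.032 for ETS, and -0.093 and -0.033 for YY1. Whether these medians differ was not tested. A match is a description of the window and not a measured site.

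The 4 genes at an unadjusted p under 0.05 are shown because they had the smallest p of the 89 and because their promoters differ in the NRF1 letters. Each line gives the 250 bases before the start site, 5′ to 3′ on the gene's strand, with NRF1 letters in capitals. They lie at chrX:20617620-20617869 (minus strand) for Ndufb11, chr3:32736813-32737062 (plus) for Ndufb5, chr6:24527691-24527940 (minus, the more upstream of 2 starts) for Ndufa5 and chr4:123718187-123718436 (minus) for Ndufs5.
Ndufb11: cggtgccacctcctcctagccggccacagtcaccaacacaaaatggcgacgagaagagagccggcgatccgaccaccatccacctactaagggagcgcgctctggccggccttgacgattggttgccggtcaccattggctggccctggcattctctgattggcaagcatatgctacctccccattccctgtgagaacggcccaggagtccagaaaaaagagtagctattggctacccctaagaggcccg
Ndufb5: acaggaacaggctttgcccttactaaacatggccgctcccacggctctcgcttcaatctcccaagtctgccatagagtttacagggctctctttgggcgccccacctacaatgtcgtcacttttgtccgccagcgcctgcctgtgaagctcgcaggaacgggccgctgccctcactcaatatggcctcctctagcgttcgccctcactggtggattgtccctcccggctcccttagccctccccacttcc
Ndufa5: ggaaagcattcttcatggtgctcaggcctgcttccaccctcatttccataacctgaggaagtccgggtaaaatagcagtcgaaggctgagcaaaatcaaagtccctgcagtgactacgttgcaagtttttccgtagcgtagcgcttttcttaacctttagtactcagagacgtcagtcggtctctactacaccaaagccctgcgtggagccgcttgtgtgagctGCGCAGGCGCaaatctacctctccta
Ndufs5: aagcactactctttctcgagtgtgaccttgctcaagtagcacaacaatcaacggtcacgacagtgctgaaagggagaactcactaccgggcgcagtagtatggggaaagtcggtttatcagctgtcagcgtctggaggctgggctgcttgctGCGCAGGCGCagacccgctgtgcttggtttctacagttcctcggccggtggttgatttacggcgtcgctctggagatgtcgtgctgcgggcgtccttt
Ndufa5 and Ndufs5 both hold the NRF1 letters, 26 to 17 and 98 to 89 bases before their start sites, and they changed in opposite directions (-0.29 and 0.54). Ndufb11 and Ndufb5, both lower with GSK126, hold none of the 3 motifs in these bases.

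Other genes of the mitochondrial pathway, from lists chosen by function, mostly had lower means too, and none of them passed the adjusted threshold in limma. Proteins of the mitochondrial ribosome, which translates the subunits encoded in mitochondrial DNA, had a median of -0.12 over 71 genes, with 59 lower. At an unadjusted p under 0.05 in limma 11 were lower, against 5.93% of all genes and 8.9% of those that were not dim. At that level 0 were higher. The lower count was 7 when no intensity trend was fitted, against 4.1% of all genes. It was 18 with centred arrays, where the share of all genes also rose, to 10.1%. Dropping the first GSK126 array gave a median of -0.088, and dropping the first DMSO array gave -0.12. Mrpl20, a protein of the large subunit, had 6.23 and 6.44 in DMSO and 5.72 and 5.92 with GSK126 (change -0.52, SE 0.14, adjusted p = 0.256), and Mrpl49 and Mrpl28 changed by -0.30 and -0.35. For these 3 genes, picked by their p, both GSK126 arrays were the low ones. Over the list, both GSK126 arrays lay below for 35 of 71 genes (49.3%), against 21.8% of all genes and 28.1% of those that were not dim. They lay above for 2, against 18.2% and 17.3%.

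Assembly factors of complexes II to V had a median of -0.12 over 32 genes, 27 of them lower and 3 lower at an unadjusted p under 0.05, against 5.93% of all genes and 8.9% of those that were not dim. Without GSK126 replicate 2 the median was -0.19. The 3 were Cmc2, a factor of complex IV (-0.37, SE 0.09, adjusted p = 0.239), Sdhaf1, which helps insert iron-sulphur clusters into complex II (-0.36, SE 0.12), and Cox10, which makes the haem of complex IV (-0.43, SE 0.15). Of 7 further complex I assembly factors, 6 were lower (median -0.091, and -0.16 without GSK126 replicate 2). Acad9, also an acyl-CoA dehydrogenase, had 8.10 and 8.22 in DMSO and 7.82 and 7.84 with GSK126 (change -0.34, SE 0.09, adjusted p = 0.267). Foxred1 (-0.20) and Ecsit (-0.18) of that list had overlapping groups.

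Regulators of mitochondrial biogenesis and transcription had a median of -0.14 over 22 genes, with 18 lower and 1 at an unadjusted p under 0.05, the mitochondrial DNA polymerase gene Polg (-0.29, SE 0.11), against 5.93% of all genes. Leaving out DMSO replicate 2 gave a median of -0.065, and leaving out GSK126 replicate 2 gave -0.087. The coactivator gene Pprc1 (-0.21) and Gabpb1, a partner of the ETS factor GABPA (-0.22), followed by p. The 4 genes with a higher mean were Ppargc1a (0.17, both GSK126 arrays above both DMSO arrays), Nrf1 (0.13), Esrra (0.07) and Esrrb (0.01, dim in both groups). Electron carriers and other chain proteins had a median of -0.13 over 18 genes, with 2 lower at an unadjusted p under 0.05. Without GSK126 replicate 2 the median was -0.067, with 0 at that level in limma. The smallest p there were those of Etfa (-0.25), a flavoprotein that feeds electrons from fatty acid oxidation into the chain, Higd2a (-0.31), an assembly protein, and the testis cytochrome c gene Cyct (-0.30, dim in both groups).

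Enzymes of the TCA cycle and pyruvate dehydrogenase had a median of -0.036 over 25 genes (-0.075 without DMSO replicate 1 and -0.006 after quantile normalization), with 4 at an unadjusted p under 0.05, all lower, against 5.93% of all genes and 8.9% of those that were not dim, and 0 without DMSO replicate 1 or without GSK126 replicate 2. The smallest p were those of the kinase Pdk2 (-0.39), the dehydrogenase subunit Pdhb (-0.25) and the phosphatase Pdp2 (-0.33). Protein import genes had a median of -0.075 over 26 genes (-0.049 without DMSO replicate 1 and -0.037 after quantile normalization), with 3 lower at that level (0 without the intensity trend and 1 after quantile normalization), Tomm40 (-0.31), Timm10 (-0.27) and Timm8a1 (-0.26). Uncoupling proteins and nucleotide carriers had a median of -0.043 over 11 genes and 0 at an unadjusted p under 0.05 in limma, the smallest p being those of Slc25a31 (-0.32, dim in both groups), Vdac3 (-0.12) and Slc25a27 (-0.16).

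Subunits encoded in mitochondrial DNA pointed the other way. All 10 measured had a higher mean with GSK126, against 48.0% of all genes, at a median of 0.14. None passed the adjusted threshold. ND6, a complex I subunit, was the 1 gene higher at an unadjusted p under 0.05 in limma, against 4.64% of all genes. It had 9.15 and 9.65 in DMSO and 9.69 and 10.03 with GSK126 (change 0.46, SE 0.17, adjusted p = 0.421). ND1 (0.15) and COX1 (0.15), the catalytic subunit of complex IV, had overlapping groups, at 12.94 and 13.02 in DMSO and 13.01 and 13.25 with GSK126 for COX1. GSK126 replicate 2 was the highest array for each of the 10. Without GSK126 replicate 2 the median was 0.015, and 2 of the 10 were lower. It was 0.27 without GSK126 replicate 1, 0.089 without DMSO replicate 1, 0.090 with centred arrays and 0.086 after quantile normalization. These transcripts are the product of a few long precursors, so the 10 values are not independent of each other.

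**Figure D4:**
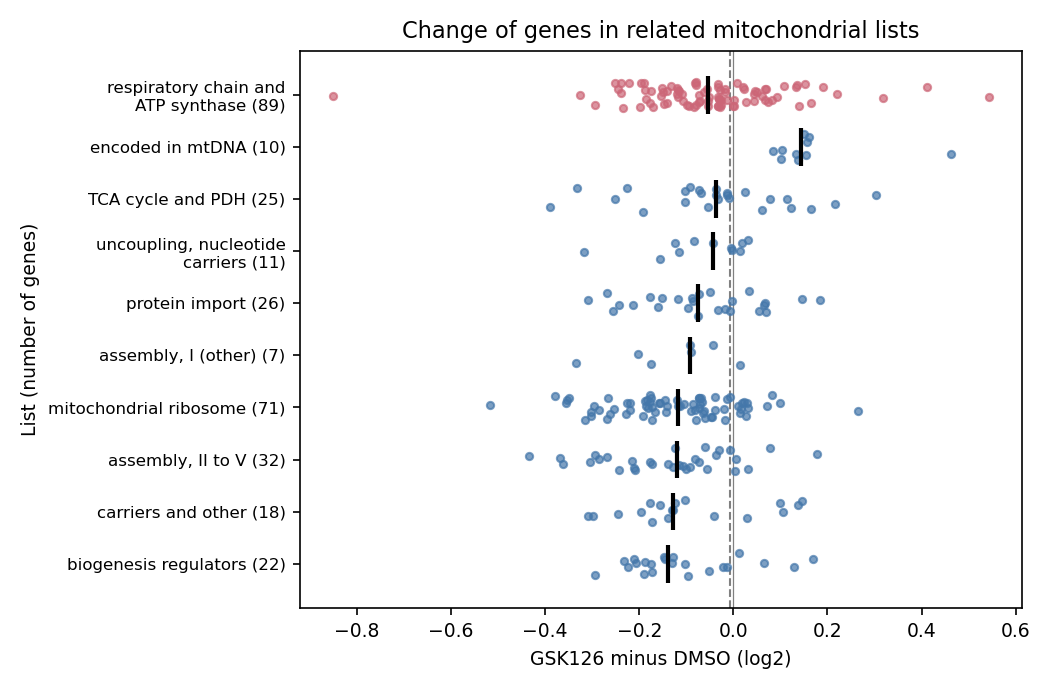
Change (GSK126 minus DMSO, log2, x axis) of each gene in the 89-gene set (red) and in 9 related mitochondrial lists (blue; number of genes in brackets on the y axis); black bars are medians and the dashed line is the median of all genes (-0.008). The list encoded in mitochondrial DNA lies above 0 (0.08 to 0.46), and the medians of the other lists lie between -0.14 and -0.036.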

How the data were processed

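RNA of 2 DMSO and 2 GSK126 samples was measured on Affymetrix arrays. The deposited values are log2 expression values. Per the labels, the authors ran RMA (robust multi-array average) at the core-exon level in the Expression Console software. A further tool, Affymetrix Power Tools, appears without a version in the submitters' processing notes. The genome build was not given in the sources used here. Groups and replicate numbers come from the sample titles.

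Of 41345 probe sets, 23521 carry 1 gene symbol, and each gene took the probe set with the highest mean. The 89 genes have 98 such probe sets, and 9 of the genes have more than 1. A further 10 probe sets name a gene of the pattern beside another gene and were not used, so that Ndufs6, Ndufb2, Ndufb4, Cox6c and Uqcr10 were not analysed here. No low-value filter was applied. Subunit genes have many processed pseudogenes, and transcripts with shared probe sequence cannot be separated on an array.

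GSK126 minus DMSO was fitted over all 22180 genes with limma 3.58.1 in R 4.3.3 (intensity trend, two-sided moderated test, Benjamini-Hochberg adjustment, threshold 0.05, 2 residual degrees of freedom, prior 5.57), after a test on simulated data. The number of arrays limits the precision. With 2 arrays a group, no exact test of a median over genes can reach 0.05, and none was made. The members and lists were chosen with earlier results of these data known. Named are the 4 genes of each complex with the smallest p, core and F1 subunits, paralogs, genes whose probe sets differ in sign, and the 3 smallest p of each related list. Other genes named, such as Ndufab1, Ndufa9, Cox7c and Cyc1, were chosen after their values were seen. Alternatives were another prior, dim genes left out, averaged or single probe sets, centring, quantile normalization, the replicate block and single arrays left out. Leaving the pseudogenes out was chosen after seeing the data.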

Additional observations from a re-analysis of the deposited data

How the results depend on the processing

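The count of all genes past the threshold in limma was 96. It was 0 without the intensity trend and 0 over all single probe sets (1964 and 2921 at an unadjusted p below 0.05), 149 without dim genes, and from 0 to 4 with 1 array left out (from 1771 to 2100 at an unadjusted p below 0.05). The count of 0 among the 89 genes became 1, Ndufb11, without dim genes and with centred arrays, and stayed 0 under the others. No gene of the related lists passed the threshold in limma under any alternative. With centred arrays 9 of the 89 genes were lower at an unadjusted p under 0.05 in limma, against 10.1% of all genes, and 1 was higher. In that fit 2936 of the 22180 genes were at that level in either direction. Without the intensity trend 1 of the 89 was lower, against 4.1% of all genes, and 1 was higher.

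With centred arrays the medians were -0.13 for complex I, -0.14 for II, -0.12 for III, -0.085 for IV and -0.062 for V, and after quantile normalization that of complex I was -0.057. Leaving out single arrays gave -0.10 to -0.046 for complex I, -0.086 to -0.040 for II, -0.11 to -0.024 for III, -0.050 to 0.023 for IV and -0.040 to 0.010 for V. Leaving out assembly factors, pseudogenes or dim members moved each median by less than the spread between arrays. Of the 89 genes, 79 kept the sign of their change with centred arrays, 83 after quantile normalization and 48 in all 4 fits that left out 1 array. The cause of these shifts was not tested.

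A replicate block in the fit left 10 calls over all genes and 0 among the 89. Same-numbered arrays did not deviate together (correlation of deviations -0.025 over 22180 genes). With so few arrays a group, this value cannot show whether same-numbered arrays share a line, culture or batch, and that was not tested.

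With 2 arrays a group, the interval of a typical gene spans about 0.24 to either side.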
